A study of Homo sapiens with 4 samples.

Results

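The regulators of the RB and E2F switch described here are 10 genes of the 26485 gene names in the tables, namely the pocket proteins RB1, RBL1 and RBL2, the E2F factors E2F1, E2F2 and E2F3 with their partner TFDP1, the G1 cyclins CCND1 and CCNE1, and the inhibitor locus CDKN2A. They were found by gene name. The set was chosen by measured values, since RB1 and TFDP1 were selected on a lower FPKM in both PTX libraries and a place on chromosome 13, so the differences between PTX and wt below are a description and carry no test. The study asked which mRNAs differ between anaplastic thyroid cancer (ATC) cells that had become resistant to paclitaxel (PTX), a taxane that stabilizes microtubules, and the parental cells. SW1736 and 8505C are established human ATC lines and were sequenced as wild-type cells (SW1736 wt, 8505C wt), which had received no drug, and as resistant cells (SW1736-PTX, 8505C-PTX), which had been selected over 6 months with paclitaxel raised from 1 nM to 1.5 µM. The study kept the resistant cells in medium with 1.5 µM paclitaxel, and whether the drug was removed before RNA was taken is not stated. Drug in the medium and acquired resistance therefore cannot be told apart in the differences between PTX and wt. There was 1 mRNA library per condition and 4 libraries in all, so no value has a replicate error, no p-value was computed, and the spread between cultures is unknown.

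The libraries held 48.9 M reads for SW1736 wt, 57.9 M for SW1736-PTX, 43.5 M for 8505C wt and 53.6 M for 8505C-PTX, as the ratio of coverage to FPKM gives them. FPKM is the number of aligned fragments scaled to the length of the gene and the depth of the library. The library labelled SW1736-PTX went against its label in several genes that mark a cell's origin. PAX8, a transcription factor of the thyroid lineage, had 38.2 FPKM in SW1736 wt, 0.206 in the library labelled SW1736-PTX, 0.123 in 8505C wt and 0.146 in 8505C-PTX. NKX2-1, another thyroid lineage factor, was listed at 0 in SW1736 wt and had 36.3 FPKM in the library labelled SW1736-PTX, 30.5 in 8505C wt and 39.0 in 8505C-PTX. KRT19, an epithelial keratin, had 266 FPKM in SW1736 wt, 0.535 in the library labelled SW1736-PTX and 0 in both 8505C libraries. The endothelial marker CDH5 went the other way, with the library labelled SW1736-PTX near SW1736 wt. It had 0 FPKM in SW1736 wt, 0.225 in the library labelled SW1736-PTX, 55.9 in 8505C wt and 4.53 in 8505C-PTX. The endothelial markers PECAM1 and VWF were below 0.5 FPKM in every library. Across 14692 genes, the Pearson correlation of log2 levels of the library labelled SW1736-PTX was 0.767 with SW1736 wt, 0.873 with 8505C wt and 0.933 with 8505C-PTX, whereas both wt libraries correlated at 0.845 with each other. Genes are not independent replicates, and whether this pattern comes from the selection or from another origin of the cells was not tested. The changes of the 10 genes and the summaries of the gene groups are therefore also given for the library labelled SW1736-PTX against 8505C wt, a comparison that shares 8505C wt with the 8505C pair. As for the labelled tissue, the thyroid differentiation genes TG, TSHR and SLC5A5 were at or near 0 in all 4 libraries, while KRT7, KRT8, KRT18 and VIM were abundant in all 4. The epithelial markers EPCAM and CDH1 were at or near 0 in all 4. Of the leukocyte markers, PTPRC and CD3E were at or near 0, and CD68, a lysosomal protein of macrophages that other cells also express, had 5.84 FPKM in SW1736 wt, 23.6 in the library labelled SW1736-PTX, 21.7 in 8505C wt and 43.0 in 8505C-PTX.

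The RB pathway is the main gate from G1 into S phase. The pocket proteins, when hypophosphorylated, bind E2F factors and hold the E2F-dependent genes of DNA replication silent. D-type cyclins with CDK4 or CDK6, and then E-type cyclins with CDK2, phosphorylate the pocket proteins and release the E2F-DP dimers, while CDK inhibitors such as the p16 product of CDKN2A act against these kinases. E2F1, E2F2 and E2F3 are known as the activating E2F factors, and several genes of the switch are E2F targets themselves. Loss of RB1 or CDKN2A is a well known event in human cancer, and loss of CDKN2A is known from ATC.

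Since some of these genes are known to be under E2F control, the promoters that hold an E2F motif are printed below, so that the motif can be set beside the values of the same genes. The motif was searched as TTTCCCGC, TTTCGCGC, TTTGCCGC and TTTGGCGC on both strands in the RefSeq windows (GRCh38.p14, 250 bases before to 50 after each start), and 1164 of 35116 windows (3.31%) held at least 1 match. Of the 9 members with a window, 5 held a match in at least 1 window, namely TFDP1, E2F1, E2F2, E2F3 and RBL1. Counted per gene, 6.69% of the 10860 genes compared in SW1736 that had a window held a match. RBL2, CCNE1 and CDKN2A held none, the only RB1 window lies at an internal start of the gene and held none, and CCND1 had no window. Each line gives the 150 bases before the start, 5′ to 3′ on the gene's strand, with the matches in capitals.
TFDP1: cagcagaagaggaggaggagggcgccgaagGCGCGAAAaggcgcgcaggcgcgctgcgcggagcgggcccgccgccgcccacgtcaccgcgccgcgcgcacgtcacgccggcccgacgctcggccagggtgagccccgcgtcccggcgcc
E2F1: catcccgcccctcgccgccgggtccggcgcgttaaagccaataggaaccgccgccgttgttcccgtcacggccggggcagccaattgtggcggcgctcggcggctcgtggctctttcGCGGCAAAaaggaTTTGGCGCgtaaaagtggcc
E2F2: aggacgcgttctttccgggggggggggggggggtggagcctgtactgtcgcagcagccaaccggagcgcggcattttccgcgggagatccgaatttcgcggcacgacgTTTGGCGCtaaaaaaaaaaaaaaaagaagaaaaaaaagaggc
E2F3: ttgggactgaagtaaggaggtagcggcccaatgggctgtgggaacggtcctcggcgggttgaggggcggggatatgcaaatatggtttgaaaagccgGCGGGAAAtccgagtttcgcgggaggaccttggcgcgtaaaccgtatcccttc
RBL1: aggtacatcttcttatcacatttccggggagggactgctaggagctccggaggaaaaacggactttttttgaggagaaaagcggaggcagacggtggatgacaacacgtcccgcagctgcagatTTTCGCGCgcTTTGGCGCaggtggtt
These stretches are chr13:113584603-113584752 on the plus strand for TFDP1, chr20:33686386-33686535 on the minus strand for E2F1, chr1:23531234-23531383 on the minus strand for E2F2, chr6:20401729-20401878 on the plus strand for E2F3, where the first of its 2 windows is shown, and chr20:37095998-37096147 on the minus strand for RBL1. The match of TFDP1 began 120 bases before the start, and the matches of the other 4 genes began between 53 and 16 bases before it, with 2 matches each in E2F1 and RBL1. Each match is a run of letters and no measured binding site.

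All 10 regulators were expressed above 0.5 FPKM in all 4 libraries and were compared in every pair. A change is log2((PTX + 0.1)/(wt + 0.1)) of the FPKM, here called a log2 fold change, and a gene was called lower or higher beyond -1.5 or 1.5. Adding 0.1 understates the change of genes with a low FPKM. In SW1736, 5 of the 10 were called lower (RB1, RBL1, TFDP1, CCNE1 and CDKN2A), where 10.2% of all 14202 compared genes were called lower, and none was called higher, where 15.7% of all compared genes were. In 8505C, 5 were called lower (RB1, TFDP1, E2F1, E2F3 and CCNE1), with 5.89% of 13794 genes called lower and 15.0% called higher over the whole table. RB1, TFDP1 and CCNE1 were called lower in both lines, as were 2.41% of the 13304 genes compared in both. Against 8505C wt, the library labelled SW1736-PTX had 3 of the 10 called lower (RB1, TFDP1 and E2F3), with 5.23% of all genes called lower and 15.1% higher. The rule used these contrasts, so nothing is read from the shares.

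The median log2 fold change of the 10 genes was -1.48 in SW1736 and -1.48 in 8505C, beside 0.01 and 0.11 for all compared genes. It was -1.28 for the library labelled SW1736-PTX against 8505C wt, beside 0.10 for all genes. Both PTX libraries lay below both wt libraries in 8 of the 10 genes, all but RBL2 and CDKN2A, as they did in 28.2% of all genes compared in both lines. RBL2 was above in both PTX libraries, as were 32.1% of all genes. The members closest to the limit in SW1736 were CDKN2A at a log2 fold change of -1.54, just inside, and E2F1 at -1.42, just outside. In 8505C they were RB1 at -1.59 and E2F2 at -1.37, and for the library labelled SW1736-PTX against 8505C wt RB1 at -1.56 and CCNE1 at -1.49.

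**Figure D1:**
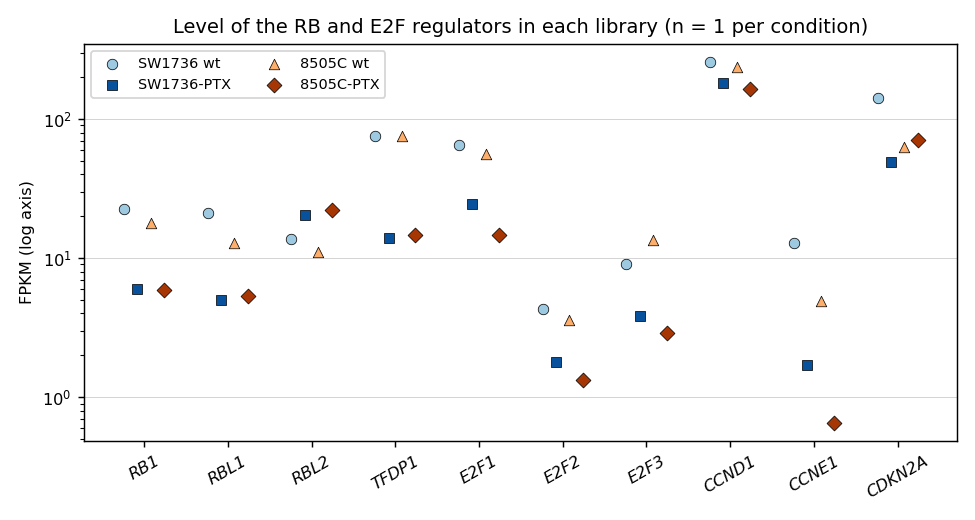
FPKM of the 10 regulators (log axis) in the 4 libraries, 1 point per library and gene. In 8 genes both PTX points lie below both wt points, RBL2 lies the other way, and CDKN2A ranges from 49.0 to 143 FPKM with the 8505C-PTX point above that of 8505C wt.

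Among the pocket proteins, RB1 and RBL1 were lower and RBL2 was higher in both PTX libraries. RB1, the retinoblastoma protein gene, lies on hg38 chr13:48303747-48481890, plus strand, with 27 exons in its main transcript. It had 22.5 FPKM in SW1736 wt, 6.03 in the library labelled SW1736-PTX, 18.0 in 8505C wt and 5.94 in 8505C-PTX. Both PTX libraries were thus at nearly the same low level, and both wt libraries were high. The RB1 level was 3.73-fold lower in the SW1736 pair (log2 fold change -1.88) and 3.04-fold lower in the 8505C pair (-1.59), and the log2 fold change of the library labelled SW1736-PTX against 8505C wt was -1.56. Counting error alone gives a 95% interval of the log2 ratio from -1.98 to -1.82 in SW1736 and from -1.69 to -1.52 in 8505C. Such intervals rest on read numbers estimated from coverage and cover counting error only, not the variation between cultures.

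RBL1 encodes p107, a pocket protein that is itself E2F-regulated in cycling cells (chr20:36996351-37096000, minus strand). Its FPKM was 21.2 in SW1736 wt, 4.99 in the library labelled SW1736-PTX, 12.9 in 8505C wt and 5.38 in 8505C-PTX. As for RB1, the PTX libraries lay close to each other, whereas the wt levels were further apart. The log2 fold change of RBL1 was -2.07 in SW1736, -1.24 in 8505C and -1.35 for the library labelled SW1736-PTX against 8505C wt, so that its call in SW1736 was made only against SW1736 wt.

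RBL2 encodes p130, the pocket protein known from quiescent cells (chr16:53434439-53491648, plus strand). It had 13.8 FPKM in SW1736 wt, 20.3 in the library labelled SW1736-PTX, 11.1 in 8505C wt and 22.2 in 8505C-PTX. RBL2 was the single member above both wt libraries in both PTX libraries, by a log2 fold change of 0.55 in SW1736, 0.99 in 8505C and 0.86 for the library labelled SW1736-PTX against 8505C wt, none of which was called. In wt cells RBL2 was the lowest of the 3 pocket proteins per length, and in both PTX libraries it was the highest. RBL2 held 23.9% of the summed pocket protein FPKM in SW1736 wt and 26.5% in 8505C wt, against 64.8% in the library labelled SW1736-PTX and 66.3% in 8505C-PTX. Over the same libraries the share of RB1 was 39.1% and 42.9% in wt against 19.3% and 17.7% in PTX. The summed FPKM of the 3 genes was 57.5 in SW1736 wt, 31.3 in the library labelled SW1736-PTX, 42.0 in 8505C wt and 33.5 in 8505C-PTX. The order of the pocket proteins was therefore different in both PTX libraries, while their sum differed less than RB1 or RBL1 did.

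TFDP1 was lower by nearly the same amount in all 3 comparisons. It encodes DP1, the dimer partner through which E2F factors bind DNA (chr13:113584688-113641473, plus strand, 12 exons). Its level was 76.1 FPKM in SW1736 wt, 14.1 in the library labelled SW1736-PTX, 75.2 in 8505C wt and 14.6 in 8505C-PTX. The pair of wt libraries and the pair of PTX libraries each agreed closely, and no level lay between them. The log2 fold change was -2.43 in SW1736, -2.36 in 8505C and -2.41 for the library labelled SW1736-PTX against 8505C wt, so the choice of wt library moved it by less than 0.1. TFDP2, which encodes the related partner DP2, had 6.01, 4.62, 4.58 and 4.43 FPKM in the order SW1736 wt, the library labelled SW1736-PTX, 8505C wt and 8505C-PTX. The ratio of TFDP1 to TFDP2 in FPKM was 12.7 in SW1736 wt and 16.4 in 8505C wt, and 3.04 and 3.29 in the PTX libraries of SW1736 and 8505C. TFDP1 therefore remained the higher DP gene per length in all 4 libraries.

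The activating E2F genes were lower in both PTX libraries, by amounts that differed between the lines. E2F1, the founding member of the family (chr20:33675486-33686404, minus strand), had 65.4 FPKM in SW1736 wt, 24.3 in the library labelled SW1736-PTX, 56.0 in 8505C wt and 14.8 in 8505C-PTX. Its log2 fold change was -1.42 in SW1736, just short of the limit, -1.92 in 8505C and -1.20 for the library labelled SW1736-PTX against 8505C wt. E2F2 (chr1:23506428-23531220, minus strand) had the lowest FPKM of the 3 in SW1736 wt and 8505C wt, at 4.30 and 3.61. It had 1.80 in the library labelled SW1736-PTX and 1.33 in 8505C-PTX. Its log2 fold changes of -1.21 in SW1736, -1.37 in 8505C and -0.96 for the library labelled SW1736-PTX against 8505C wt were not called.

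E2F3 (chr6:20401906-20493714, plus strand) had 9.02 FPKM in SW1736 wt, 3.84 in the library labelled SW1736-PTX, 13.4 in 8505C wt and 2.91 in 8505C-PTX. Unlike the other 9 members it was higher in 8505C wt than in SW1736 wt, and its log2 fold change was -1.21 in SW1736 and -2.16 in 8505C. Against 8505C wt the library labelled SW1736-PTX gave -1.78, which passes the limit. The deposited coverage of E2F3 was between 5.74% and 5.97% of what its FPKM implied, for a reason not found. This gives 45 to 174 read equivalents per library and the widest counting interval of the E2F genes. It ran from -1.68 to -0.79 in SW1736 and from -2.71 to -1.72 in 8505C. E2F2 had 1093 and 816 read equivalents in SW1736 wt and 8505C wt, against 133 and 174 for E2F3. By coverage E2F3 was thus below E2F2 there, and the order of the 2 genes given above rests on FPKM. With coverage scaled by depth, the log2 fold change of E2F3 was -0.98 in SW1736 and -1.74 in 8505C. The summed FPKM of E2F1, E2F2 and E2F3 was 78.7 in SW1736 wt, 29.99 in the library labelled SW1736-PTX, 73.0 in 8505C wt and 19.0 in 8505C-PTX, most of it from E2F1.

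**Figure D2:**
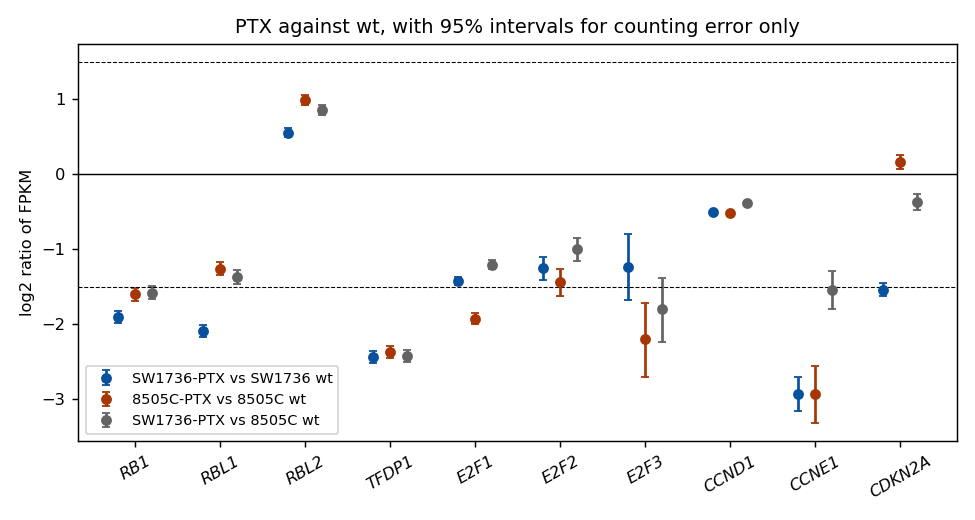
Log2 ratio of FPKM, without the added 0.1, for the 10 regulators in 3 comparisons, with bars for the 95% interval of counting error only and dashed lines at -1.5 and 1.5. RB1 and TFDP1 lie below the lower line in all 3 comparisons, and the bars of E2F3 and CCNE1 are the longest.

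The 2 G1 cyclins differed in size of change. CCND1, cyclin D1, which activates CDK4 and CDK6 (chr11:69641105-69654474, plus strand), was the most abundant member per length in every library. It had 257 FPKM in SW1736 wt, 181 in the library labelled SW1736-PTX, 236 in 8505C wt and 165 in 8505C-PTX. Its log2 fold change was -0.51 in SW1736, -0.52 in 8505C and -0.38 for the library labelled SW1736-PTX against 8505C wt, so that no comparison came near the limit. Cyclin D1 held 87.8% and 84.3% of the summed FPKM of the 3 D-type cyclins in SW1736 wt and 8505C wt, and 95.0% and 95.1% in the PTX libraries.

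CCNE1, cyclin E1, which activates CDK2 late in G1 (chr19:29811994-29824308, plus strand), had the lowest PTX level of the 10 genes in both lines. Its FPKM was 12.9 in SW1736 wt, 1.70 in the library labelled SW1736-PTX, 4.95 in 8505C wt and 0.652 in 8505C-PTX. The FPKM was 7.61-fold lower in SW1736 and 7.60-fold lower in 8505C, with log2 fold changes of -2.86 and -2.75. The levels themselves differed between the lines, since 8505C wt had a log2 difference of -1.37 to SW1736 wt and 8505C-PTX of -1.26 to the library labelled SW1736-PTX. Against 8505C wt the library labelled SW1736-PTX had a CCNE1 log2 fold change of -1.49, just short of the limit, so its call in SW1736 holds only against SW1736 wt. The value in 8505C-PTX rests on 68 read equivalents, with a counting interval of the log2 ratio from -3.32 to -2.55. The ratio of CCND1 to CCNE1 in FPKM was 19.9 in SW1736 wt, 107 in the library labelled SW1736-PTX, 47.6 in 8505C wt and 253 in 8505C-PTX.

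CDKN2A was the single member whose direction differed between the lines. The locus (chr9:21967752-21994491, minus strand) encodes p16, an inhibitor of CDK4 and CDK6, and ARF from another first exon, and the gene tables give 1 value for both. It had 143 FPKM in SW1736 wt, 49.0 in the library labelled SW1736-PTX, 63.2 in 8505C wt and 70.7 in 8505C-PTX. SW1736 wt was high, and the other 3 libraries lay closer to each other. The log2 fold change of CDKN2A was -1.54 in SW1736, 0.16 in 8505C and -0.36 for the library labelled SW1736-PTX against 8505C wt. The call in SW1736 was lost with 8505C wt as the reference, and the difference between the lines was not tested.

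Ordered by FPKM, CCND1 stood first in all 4 libraries. In SW1736 wt it was followed by CDKN2A, TFDP1, E2F1, RB1, RBL1, RBL2, CCNE1, E2F3 and E2F2. In 8505C-PTX the order after CCND1 was CDKN2A, RBL2, E2F1, TFDP1, RB1, RBL1, E2F3, E2F2 and CCNE1, and the library labelled SW1736-PTX differed from it only in that E2F1 stood above RBL2. RBL2 had thus moved up the order and TFDP1 and CCNE1 down in both PTX libraries. The place of E2F3 in these orders rests on its FPKM, which its coverage did not match. Neighbours such as E2F1 at 14.8 and TFDP1 at 14.6 FPKM in 8505C-PTX differed little, and with 1 library per condition no order between neighbours can be set against a spread. Between the wt libraries of both lines, and between their PTX libraries, none of the 10 genes was called in either direction, where 17.6% of all compared genes were called between the wt libraries and 7.79% between the PTX libraries.

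Some members share sequence or position with other genes. On the opposite strand, LPAR6 lies inside RB1, and AKTIP, LTO1 and CDKN2B-AS1 overlap RBL2, CCND1 and CDKN2A. TFDP1 and E2F3 have processed pseudogenes. Whether strand was used in the counting is not given in the sources used here, so reads of such pairs may not be told apart.

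The rest of the pathway was taken from lists of 51 other genes. In SW1736, 50 of them were compared, of which 7 were called lower (14%, beside 10.2% of all compared genes) and 4 higher (8%, beside 15.7%), with a median log2 fold change of -0.34. In 8505C, 49 were compared, of which 11 were called lower (22.4%, beside 5.89%) and 2 higher (4.08%, beside 15.0%), with a median of -0.52. In both lines 7 were called lower and 1 higher, where 2.41% of all genes compared in both were called lower in both. Against 8505C wt, the library labelled SW1736-PTX had 9 of 50 called lower (18%, beside 5.23%) and 3 higher (6%, beside 15.1%).

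Of the 6 other E2F and DP factors compared, E2F8 alone was called lower in both lines, as were 2.41% of all genes compared in both. E2F8, an atypical E2F that represses transcription without a DP partner, had 13.2 FPKM in SW1736 wt, 2.98 in the library labelled SW1736-PTX, 9.35 in 8505C wt and 2.56 in 8505C-PTX. E2F7, the other atypical factor, was called in 8505C only, with log2 fold changes of -1.17 and -1.85. E2F5, a factor that binds p130, had 0.052 FPKM in SW1736 wt and 3.58 in the library labelled SW1736-PTX, beside 2.94 and 3.53 in 8505C wt and 8505C-PTX. Its log2 fold change of 4.59 in SW1736 was therefore matched by 0.26 in 8505C, and the library labelled SW1736-PTX stood near both 8505C libraries. The median over these factors was -0.68 in SW1736, -0.94 in 8505C and -0.83 for the library labelled SW1736-PTX against 8505C wt.

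MuvB is the complex that joins p130 or p107 in the DREAM repressor and MYBL2 and FOXM1 in its activating forms. Of its 7 listed genes, 2 were called lower in each line (28.6%, beside 10.2% of all compared genes in SW1736 and 5.89% in 8505C). They were FOXM1 and MYBL2 both times, the pair that drives genes of G2 and mitosis. FOXM1 had 105.5 FPKM in SW1736 wt, 20.8 in the library labelled SW1736-PTX, 69.6 in 8505C wt and 19.3 in 8505C-PTX. MYBL2 had 102 and 97.0 FPKM in wt cells of SW1736 and 8505C and 29.2 and 25.0 in the PTX libraries. The median of the 7 was -0.36 in SW1736, -0.70 in 8505C and -0.83 for the library labelled SW1736-PTX against 8505C wt.

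Of the other G1 cyclins and kinases, 3 were called lower in both lines. CDC25A, the phosphatase that activates CDK2, had 10.8 FPKM in SW1736 wt, 2.06 in the library labelled SW1736-PTX, 13.5 in 8505C wt and 1.43 in 8505C-PTX. CCNE2, the other E-type cyclin, had log2 fold changes of -1.83 and -2.60, and CCND3, a D-type cyclin, of -2.11 and -2.36. Both E-type cyclins and 1 of 3 D-type cyclins were thus called lower in both lines. CDK2, the kinase of cyclin E, was called in 8505C only (-1.58, against -1.24 in SW1736). CCND2 was listed at 0 in both wt libraries and had 1.30 FPKM in the library labelled SW1736-PTX and 0.073 in 8505C-PTX, and it was called higher in SW1736 and fell under the minimum for comparison in 8505C. The list gave 3 lower (30%, beside 10.2% of all compared genes) and 1 higher (10%, beside 15.7%) of 10 in SW1736. It gave 4 lower of 9 in 8505C (44.4%, beside 5.89%). The medians were -1.07 and -1.04. Against 8505C wt, the library labelled SW1736-PTX gave 3 lower (30%, beside 5.23%) and 1 higher (10%, beside 15.1%) of 10, with a median of -0.81.

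Of the 6 CDK inhibitors other than CDKN2A, 1 was called higher in SW1736 (16.7%, beside 15.7% of all compared genes) and 2 in 8505C (33.3%, beside 15.0%), and none lower. CDKN1C, which encodes p57, had 0.878 FPKM in SW1736 wt, 14.1 in the library labelled SW1736-PTX, 0.847 in 8505C wt and 13.8 in 8505C-PTX, and its log2 fold changes of 3.86 and 3.88 were called in both lines. It was low in both wt libraries and high in both PTX libraries. CDKN2B, which encodes p15 beside CDKN2A on chromosome 9, was called higher in 8505C only, with 7.36, 4.07, 1.13 and 4.55 FPKM in SW1736 wt, the library labelled SW1736-PTX, 8505C wt and 8505C-PTX. The ratio of CDKN2A to CDKN2B in FPKM was 19.4 in SW1736 wt, 12.0 in the library labelled SW1736-PTX, 56.0 in 8505C wt and 15.5 in 8505C-PTX. In SW1736, CDKN2B and CDKN2C, which encodes p18, had log2 fold changes below 0, of -0.84 and -1.07, and in 8505C all 6 inhibitors lay above 0. The median of the list was 0.72 in SW1736, 0.84 in 8505C and 1.30 for the library labelled SW1736-PTX against 8505C wt.

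Ubiquitin ligase adaptors of G1 held 1 call in 2 lines, CKS1B in 8505C (log2 fold change -1.57, against -0.84 in SW1736), a cofactor of SKP2 in the removal of p27. The call made up 16.7% of this list in 8505C, beside 5.89% of all compared genes called lower. The median of the list was -0.16 in SW1736, -0.55 in 8505C and -0.21 for the library labelled SW1736-PTX against 8505C wt. Of 11 RB-binding chromatin factors, SUV39H1, a histone methyltransferase that RB recruits, was called lower in both lines, with 25.7 FPKM in SW1736 wt, 3.90 in the library labelled SW1736-PTX, 11.7 in 8505C wt and 3.40 in 8505C-PTX. DNMT1, the maintenance DNA methyltransferase, was called in 8505C only, at -1.67 against -1.30 in SW1736. Called lower were 9.09% of these factors in SW1736 and 18.2% in 8505C, beside 10.2% and 5.89% of all compared genes. Most of these factors were not called, and their medians were -0.31 in SW1736, -0.38 in 8505C and -0.20 for the library labelled SW1736-PTX against 8505C wt.

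**Figure D3:**
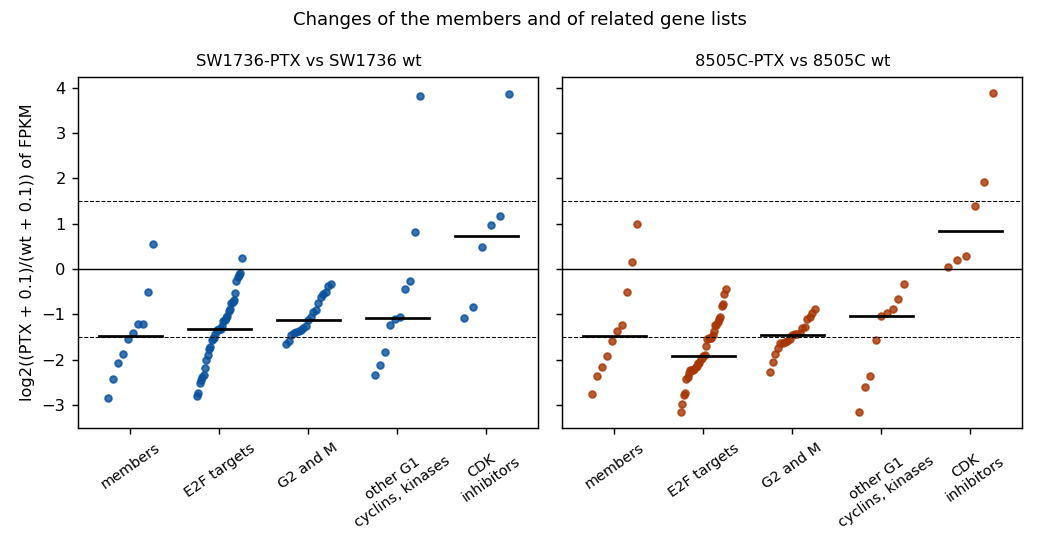
Log2 fold change of each compared gene of the members and of 4 related lists in the SW1736 pair and the 8505C pair, 1 point per gene, with a bar at the median and dashed lines at -1.5 and 1.5. The E2F targets have medians of -1.33 and -1.91, and the CDK inhibitors of 0.72 and 0.84.

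The known E2F targets, 35 genes of DNA replication, nucleotide supply and chromatin assembly, were mostly lower in both PTX libraries. In SW1736, 14 were called lower (40%, beside 10.2% of all compared genes) and none higher (beside 15.7%). Of the 35, 34 had a log2 fold change below 0 there, and the median was -1.33. In 8505C, 24 were called lower (68.6%, beside 5.89%) and none higher (beside 15.0%). All 35 lay below 0 there, and the median was -1.91. In both lines 13 were called lower, as were 2.41% of all genes compared in both. For the library labelled SW1736-PTX against 8505C wt, 17 were called lower (48.6%, beside 5.23%), with a median of -1.46. UHRF1, which guides DNA methylation at replication forks, had 77.5 FPKM in SW1736 wt, 13.4 in the library labelled SW1736-PTX, 58.2 in 8505C wt and 6.43 in 8505C-PTX. MCM10, a replication initiation factor, had 25.9, 3.60, 19.5 and 2.39 FPKM in the same order. Of the replicative helicase, MCM7 had log2 fold changes of -2.73 and -2.39, MCM5 of -2.34 and -1.91, and its partners GINS2 of -2.45 and -2.75 and CDC45 of -2.02 and -2.43. The helicase genes MCM2, MCM3, MCM4 and MCM6 were called in 8505C only, with -0.88, -0.73, -0.54 and -1.27 in SW1736. CHAF1B, a subunit of the chromatin assembly factor, and ORC1, a subunit of the origin recognition complex, were also called in both lines. Of the 35 targets, 30 had a promoter window, and 17 of these held the motif printed above for TFDP1, E2F1, E2F2, E2F3 and RBL1, beside 6.69% of the 10860 genes compared in SW1736 that had a window.

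Of 19 genes of G2 and mitosis, which MuvB complexes and FOXM1 are known to control, 2 were called lower in SW1736 (10.5%, beside 10.2% of all compared genes) and 9 in 8505C (47.4%, beside 5.89%). All 19 had log2 fold changes below 0 in both lines, with medians of -1.12 and -1.46. For the library labelled SW1736-PTX against 8505C wt, 6 were called lower (31.6%, beside 5.23%), with a median of -1.34. ECT2, a gene of cytokinesis, was the single gene called in both, with 57.2 FPKM in SW1736 wt, 19.0 in the library labelled SW1736-PTX, 63.7 in 8505C wt and 13.1 in 8505C-PTX. CDK1, the mitotic kinase, was called in SW1736 only, at -1.65 against -1.46. CDC20, PLK1, BUB1B, CENPE, UBE2C and BUB1 were among those called in 8505C only, with log2 fold changes from -2.05 for CDC20 to -1.62 for BUB1. In bulk libraries, a smaller share of cycling cells and less RNA of these genes per cell cannot be told apart, and this holds for the E2F genes, CCNE1 and TFDP1 as well.

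RB1 and TFDP1 lie on a chromosome whose genes were lower as a whole. On chromosome 13, 63 of 238 compared genes (26.5%, beside 10.2% of all) were called lower in SW1736 and 48 of 220 (21.8%, beside 5.89%) in 8505C. The median log2 fold change of its genes was -0.98 in SW1736 and -0.82 in 8505C, beside 0.02 and 0.12 for the genes of all other chromosomes. Below 0 were 77.7% of its genes in both lines, beside 49.2% and 45.2% elsewhere. In 8505C the median of chromosome 13 was the lowest of all chromosomes, and in SW1736 that of chromosome 21 was lower, at -1.19. Chromosomes X, 10 and 7 also had low medians in SW1736, at -0.81, -0.62 and -0.49. Called lower in SW1736 were 40.5% of the genes of chromosome 21, 24.5% of chromosome 7, 23.2% of chromosome X and 17.1% of chromosome 10. Chromosome 13 was thus 1 of several such chromosomes in that pair. For the library labelled SW1736-PTX against 8505C wt, chromosome 13 again had the lowest median, at -0.84, with 46 of 226 genes (20.4%, beside 5.23% of all) called lower. Chromosome 21 was close there, with a median of -0.82 and a higher share called lower, 27.7%. Of 214 genes of chromosome 13 compared in both lines, 27 (12.6%, beside 2.41% of all) were called lower in both and 4 higher in both. DNA was not measured here, so the copy number of chromosome 13 was not tested.

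**Figure D4:**
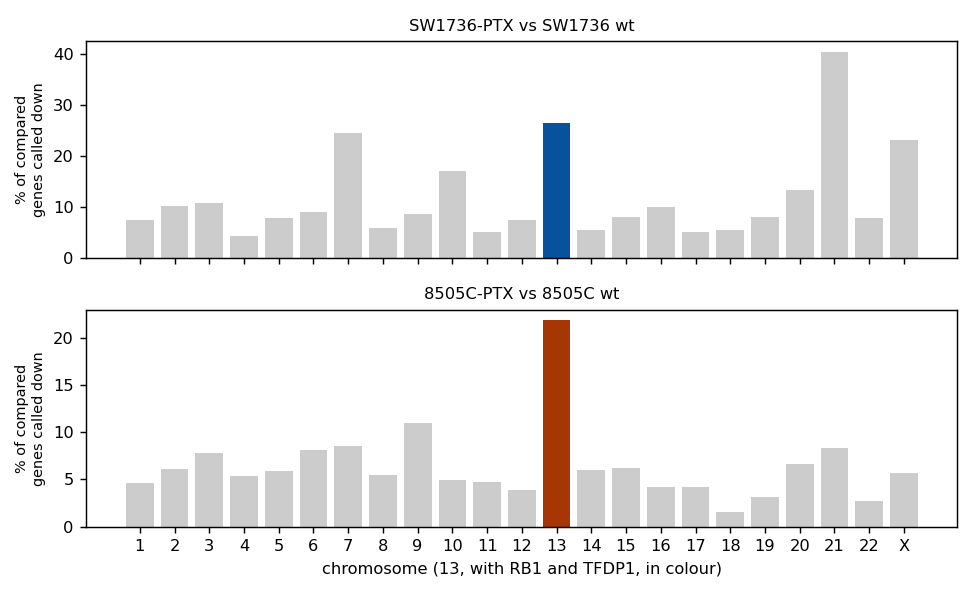
Share of the compared genes of each chromosome that were called lower, in percent, for the SW1736 pair (top) and the 8505C pair (bottom). Chromosome 13, in colour, stands at 26.5% and 21.8%, the highest bar in 8505C. In SW1736 it is below chromosome 21 and a little above chromosomes 7 and X.

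Both genes were lower than most genes of their chromosome. Since RB1 and TFDP1 were selected on a lower FPKM in both PTX libraries, nothing is read from the ranks that follow. RB1 had the 44th lowest log2 fold change of 238 genes in SW1736 and the 45th lowest of 220 in 8505C, and TFDP1 the 19th and the 18th. Measured from the median of chromosome 13, RB1 was at -0.91 in SW1736 and -0.77 in 8505C, and TFDP1 at -1.45 and -1.54. For the library labelled SW1736-PTX against 8505C wt, RB1 was at -0.73 and TFDP1 at -1.57. What part of either difference goes with the chromosome was not tested.

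Within 1 Mb of RB1, 10 genes were compared, with a median log2 fold change of -0.51 in SW1736 and -0.54 in 8505C. In SW1736, 3 of them were called lower and 1 higher, beside 10.2% and 15.7% of all compared genes. In 8505C, 1 was called lower and 1 higher, beside 5.89% and 15.0%. For the library labelled SW1736-PTX against 8505C wt, 2 were lower and 1 higher, beside 5.23% and 15.1%, with a median of -0.70. LPAR6, the receptor gene inside an intron of RB1, was called higher in both lines, with 0.045 FPKM in SW1736 wt, 1.197 in the library labelled SW1736-PTX, 0.337 in 8505C wt and 1.73 in 8505C-PTX. It went against its host gene in both pairs. SUCLA2, a subunit of succinyl-CoA ligase, and RCBTB2 were called lower in SW1736 only, with log2 fold changes of -1.94 and -2.37 against -1.43 and -0.22 in 8505C.

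Within 1 Mb of TFDP1, 7 of 19 compared genes were called lower and 3 higher in SW1736, beside 10.2% and 15.7% of all compared genes. In 8505C, 2 of 14 were called lower and none higher, beside 5.89% and 15.0%. The medians were -0.97 in SW1736 and -0.66 in 8505C. For the library labelled SW1736-PTX against 8505C wt, 2 of 15 were called lower and 1 higher, beside 5.23% and 15.1%, with a median of -0.88. CHAMP1, which acts in chromosome alignment, was called lower in both lines, with 9.75 FPKM in SW1736 wt, 3.31 in the library labelled SW1736-PTX, 12.0 in 8505C wt and 2.86 in 8505C-PTX. The other calls in SW1736 included GAS6, a ligand of AXL receptors, with 66.1, 8.45, 3.76 and 5.44 FPKM in the same order, and its antisense gene GAS6-AS2, with a log2 fold change of -5.32. TMEM255B, LINC00452 and LINC00565 were also called lower in SW1736, from levels of 3.14, 0.524 and 1.04 FPKM in SW1736 wt, and all 3 were at or near 0 in the other 3 libraries. ATP11A, a phospholipid flippase, had 4.49 FPKM in SW1736 wt, 29.2 in the library labelled SW1736-PTX, 56.9 in 8505C wt and 20.1 in 8505C-PTX, and MIR548AR was likewise called higher in SW1736 only. In GAS6, ATP11A, TMEM255B, LINC00452 and LINC00565, SW1736 wt stood apart from the other 3 libraries on the log2 scale. TFDP1 did not share this pattern, since its wt levels were alike in both lines.

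**Figure D5:**
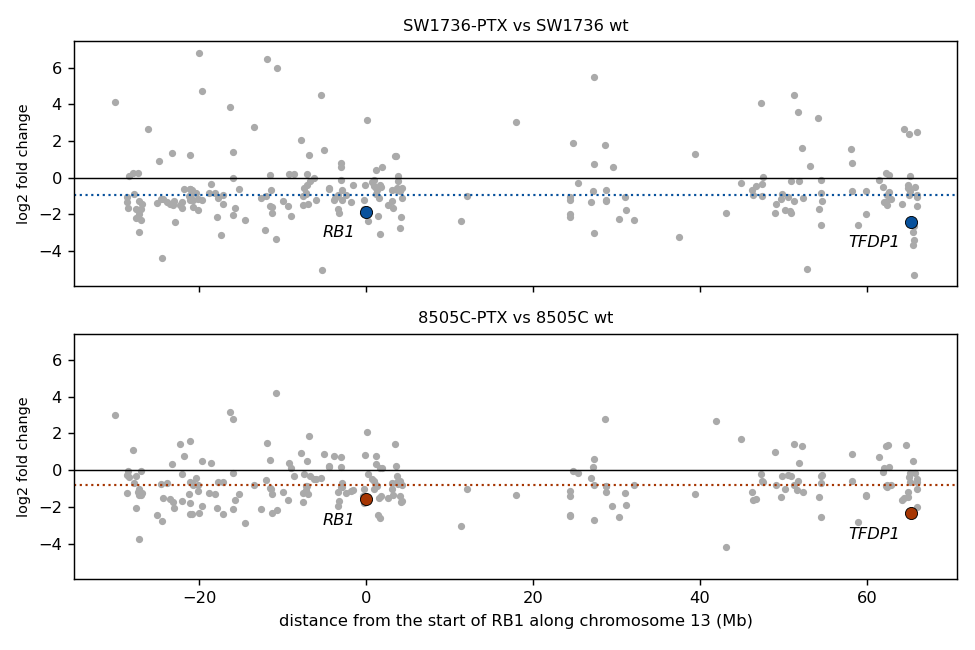
Log2 fold change of each compared gene of chromosome 13 against its distance from the start of RB1, in Mb, for the SW1736 pair (top) and the 8505C pair (bottom), with RB1 and TFDP1 in colour and a dotted line at the median of the chromosome. The medians are -0.98 and -0.82, and both named genes lie below the line in both panels.

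Among 14691 genes ranked by the Euclidean distance of their centred log2 levels over the 4 libraries, those nearest to RB1 were EIF4G1 at 0.110, LOC100128361 at 0.111 and ARHGAP11B at 0.123. EIF4G1, a translation initiation scaffold on chromosome 3, had 293 FPKM in SW1736 wt, 79.0 in the library labelled SW1736-PTX, 251 in 8505C wt and 75.1 in 8505C-PTX. Nearest to TFDP1 were MIR3153 at 0.153, RNF219 at 0.165 and GALNT6 at 0.186. RNF219, a ubiquitin ligase gene, lies on chromosome 13 as TFDP1 does, with 8.32, 1.63, 8.86 and 1.45 FPKM in the same order, and the nearest genes of RB1 lie on chromosomes 3, 9 and 15. With 4 libraries, many genes share so simple a pattern of 2 high and 2 low levels.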

How the data were processed

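Per the study's methods, the authors sequenced single-end 75 bp reads, trimmed them with Cutadapt and ERNE, aligned them to hg38 with STAR and quantified genes with StringTie. The aligner version and the annotation are not given in the sources used here. The deposited tables hold, per gene, the coverage (mean reads per base), the FPKM and the TPM that the authors obtained from StringTie. Count models were not applied, for lack of counts. Rows of a repeated gene name were summed. Genes above 0.5 FPKM in at least 1 library of a pair were compared, and log2((PTX + 0.1)/(wt + 0.1)) beyond 1.5 was called. Both limits are the study's. Depth came from the highest ratio of coverage to FPKM, and read equivalents from coverage and the length of the main GENCODE release 44 transcript. Intervals are exact (Clopper-Pearson) and cover counting error only.

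The 10 members and all gene lists were chosen with earlier results of these data known. Named are all members, genes of each list or within 1 Mb of RB1 or TFDP1 called in both lines and then in 1 line, by size, up to 8 a list, and the 3 nearest genes by pattern. Genes named otherwise were chosen after their values were seen. Some listed genes are not reported here. Alternatives changed the pseudocount, minimum, unit, centring, repeated rows, limit, reference library and, added after seeing the data, coverage scaled by depth. Python 3.11.15, NumPy 2.4.6, pandas 2.3.3, SciPy 1.17.1 and matplotlib 3.10.9 were used.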

Additional observations from a re-analysis of the deposited data

Results flagged for a closer look

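In 7 named genes the SW1736 pair and the 8505C pair moved in opposite directions, and with 1 library per condition the difference was not tested. Of these, CDK6 and CDKN2C were called in neither line. For CDKN2A the log2 fold change in 8505C minus that in SW1736 was 1.70, and for its neighbour CDKN2B it was 2.76. It was 1.36 for CDKN2C and -1.85 for CDK6. Near TFDP1 it was 3.47 for GAS6, -4.17 for ATP11A and -2.99 for MIR548AR. On the log2 scale, the SW1736 wt library stood apart from the other 3 libraries in CDKN2A, GAS6 and ATP11A. On that scale the library labelled SW1736-PTX lay nearer to both 8505C libraries than to SW1736 wt.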

How the results depend on the processing

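TPM, centring and coverage scaled by depth turned the sign of none of the 20 changes of the members, and the other settings apart from the reference could hardly turn one. With a pseudocount of 1 FPKM the call of RB1 in 8505C was lost, the genes of chromosome 13 called lower were 34 in SW1736 and 28 in 8505C, and the median of the members in 8505C was -1.29. Centring on the median of all compared genes moved that median to -1.58. With calls beyond 1, members called were 8 in SW1736 and 7 in both lines, E2F targets 24 in SW1736, other pathway genes 20 in SW1736 and 20 in 8505C, and chromosome 13 genes 117 in SW1736 and 96 in 8505C. With calls beyond 2, members called were 3 in SW1736 and 3 in 8505C, E2F targets 8 and 15, other pathway genes 4 in 8505C, and chromosome 13 genes 34 and 27. The shares of all compared genes called at these limits, or with a pseudocount of 1 FPKM, are not given here. Nothing is therefore read from these counts. With 8505C wt as the reference of the library labelled SW1736-PTX, 3 members were called, with CCNE1, CDKN2A and RBL1 lost and E2F3 gained, and the median was -1.28. The cause of the calls that changed with the reference was not tested. The wt and PTX libraries were compared in pairs by line, and no paired test was run. Each condition had 1 library, so no library could be left out without losing a condition. A model with the line as a block was not run. Apart from E2F3, whose low coverage is unexplained, depth limits CCNE1 in 8505C-PTX most, with 68 read equivalents. The coverage of CDKN2A was between 55.4% and 55.5% of what its FPKM implied, and that of TFDP1 between 72.6% and 73.0%. Their read equivalents and counting intervals rest on that coverage too.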

Other observations

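The neighbours of CDKN2A on chromosome 9 were looked at after the values of the members were seen. MTAP, which encodes methylthioadenosine phosphorylase and lies next to CDKN2A, had 22.4 FPKM in SW1736 wt, 5.55 in the library labelled SW1736-PTX, 19.4 in 8505C wt and 5.81 in 8505C-PTX, and was called lower in both lines, with log2 fold changes of -1.99 and -1.72. MIR31HG had 10.5, 2.22, 7.96 and 2.86 FPKM in the same order, and was called in SW1736 only, at -2.19 against -1.45 in 8505C. CDKN2A itself did not follow this pattern, since its level in 8505C-PTX was above that of 8505C wt.

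Genes of the switch that were not called in either line include several central kinases and inhibitors. CDK4, the partner of cyclin D, had 97.4 FPKM in SW1736 wt, 47.0 in the library labelled SW1736-PTX, 90.8 in 8505C wt and 49.0 in 8505C-PTX. CDK6 had 17.7, 31.1, 17.8 and 8.63 FPKM in the same order, so that its PTX libraries stood on either side of the wt level. CDKN1B, which encodes p27, had 20.2, 28.3, 11.9 and 31.4 FPKM, with log2 fold changes of 0.48 and 1.39. E2F4, the main repressor E2F, had 52.4, 26.4, 56.9 and 22.7 FPKM, with log2 fold changes of -0.99 and -1.32. These genes were named after their values were seen.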
